A study of Rattus norvegicus with 16 samples.

Results

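Bone morphogenetic protein (BMP) signalling was followed in rat lung through 10 genes: the secreted antagonist Grem1, the ligands Bmp2, Bmp4 and Bmp6, the receptors Bmpr2, Bmpr1a and Acvrl1, the co-receptor Eng, and the target genes Id1 and Id3. They were 10 of 14506 genes measured. A gene entered as the probe set annotated to its symbol alone, and each of the 10 genes had 1 such probe set. Expression was measured on Affymetrix rat gene arrays in lung tissue from 16 Sprague-Dawley rats, all male, with 1 array per rat; the right lung was taken after its vessels had been flushed with saline. The 4 groups of 4 rats were normoxia, hypoxia, hypoxia with 17β-estradiol (E2), and hypoxia with E2 and fulvestrant. Hypoxia was 2 weeks of low pressure at 362 mmHg, equivalent to 10% oxygen. Osmotic pumps placed subcutaneously delivered 75 µg/kg/day of E2 over 3 weeks, with hypoxia following 1 week of recovery. Fulvestrant, which blocks both nuclear estrogen receptors, was given subcutaneously at 3 mg/kg/day. The ages of the rats, and whether the rats without E2 had a drug-free pump, are not given in the sources used here. Values are log2 RMA signals, in which a difference of 1 is a doubling. The whole lung was sampled, so fewer cells of a type and less RNA per cell cannot be told apart.

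BMP ligands are secreted proteins of the TGF-beta superfamily. They bind a type II receptor such as Bmpr2 together with a type I receptor such as Bmpr1a or Acvrl1, which phosphorylates SMAD proteins that enter the nucleus and switch on targets such as the Id genes. Gremlin, the product of Grem1, binds Bmp2 and Bmp4 outside the cell and keeps them from their receptors. In lung vessels the pathway is known from human genetics: BMPR2 mutations cause heritable pulmonary arterial hypertension, and mutations of ACVRL1 or ENG cause hereditary haemorrhagic telangiectasia.

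The promoter windows of 3 genes are shown first: Grem1, which differed most of the 10 genes between hypoxia and normoxia and between E2 and hypoxia; Bmp4, a ligand gremlin binds; and Id1, a target of the pathway. They come from RefSeq's rat assembly GRCr8 and run from 250 bases before to 50 bases after the gene start, 5′ to 3′, with Grem1 at chr3:120978270-120978569 and Bmp4 at chr15:22101884-22102183 on the minus strand and Id1 at chr3:161671314-161671613 on the plus strand. Capitals mark 3 motifs searched on both strands: the core of the hypoxia response element (ACGTG or GCGTG), the GC-rich SMAD site (GGCGCC) and the half-site of the estrogen response element (GGTCA).
Grem1: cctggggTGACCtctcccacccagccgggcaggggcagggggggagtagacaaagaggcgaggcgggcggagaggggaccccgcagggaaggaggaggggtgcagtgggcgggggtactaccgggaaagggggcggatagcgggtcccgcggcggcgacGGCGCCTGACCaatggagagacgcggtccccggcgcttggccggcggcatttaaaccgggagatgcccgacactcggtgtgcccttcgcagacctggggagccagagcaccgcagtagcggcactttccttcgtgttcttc
Bmp4: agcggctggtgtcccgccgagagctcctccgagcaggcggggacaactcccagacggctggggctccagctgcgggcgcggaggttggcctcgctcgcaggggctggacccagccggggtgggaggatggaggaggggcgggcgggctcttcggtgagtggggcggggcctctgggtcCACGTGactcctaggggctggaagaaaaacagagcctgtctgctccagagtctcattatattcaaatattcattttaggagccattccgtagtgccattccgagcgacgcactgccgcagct
Id1: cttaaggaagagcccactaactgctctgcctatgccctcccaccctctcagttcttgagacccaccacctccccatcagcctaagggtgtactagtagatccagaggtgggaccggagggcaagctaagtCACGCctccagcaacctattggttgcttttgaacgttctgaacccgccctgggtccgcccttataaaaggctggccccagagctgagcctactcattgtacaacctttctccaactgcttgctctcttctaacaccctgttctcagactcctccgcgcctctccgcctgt

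In Grem1 the capitals are 2 half-sites read as TGACC, the first beginning 243 bases and the second 85 bases before the start, and the SMAD letters, which begin 91 bases before the start and abut the second half-site without overlap. In Bmp4 the run CACGTG holds 2 overlapping matches of the hypoxia core, 1 on each strand, and in Id1 the match is CACGC, beginning 120 bases before the start. Of the 10 genes 8 had a window in the table: Grem1, Bmp4, Bmp6, Bmpr2, Bmpr1a, Eng, Id1 and Id3. The hypoxia core was in 4 of the 8 and in 41.6% of all 33469 windows, the half-site in 2 of the 8 and in 40.5% of all, and the SMAD letters in Grem1 alone of the 8 and in 3688 of all. These short letters describe the windows and show no binding.

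The arrays were alike in scale, with medians between 7.69 and 7.77 over all probe sets. Normoxia replicate 4 carries normoxia in its title and hypoxia in its treatment field. The title was followed here. Its Grem1 signal was 6.55, against 6.11 to 6.28 in the other normoxia rats and 7.90 to 8.09 in the hypoxia rats. Grem1 is itself compared between these groups, so its value cannot decide the label. Replicates 2 and 3 of the E2 group stood apart from the others of that group in 10 immediate early genes, whose mean signal was 2.10 and 1.12 log2 units above the normoxia mean, against 0.45 and 0.35 in replicates 1 and 4. Hypoxia replicate 2 was as high (1.12), and the other 3 hypoxia rats lay between 0.02 and 0.35. All 10 alveolar epithelial markers looked for were measured, with surfactant protein C (Sftpc) at a mean of 13.9 among them, and so were 9 endothelial, 8 smooth muscle and 8 fibroblast markers. The comparisons below share groups: hypoxia arrays serve both the first and the second, and E2 arrays both the second and the third.

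The first comparison, hypoxia with normoxia, bears on chronic low oxygen. The antagonist Grem1 rose 3.28-fold and the ligand Bmp2 rose 2.79-fold, while the ligand Bmp6 fell 1.26-fold. So 3 of 10 genes changed, 2 higher and 1 lower, where 5.63% of all genes changed, 3.21% higher and 2.43% lower. The 10 genes were chosen with earlier results of these data known, so these shares do not test them as a set. The other 7 genes, among them both Id targets and all receptors, did not pass. The median difference over the 10 genes was 0.05, against 0.03 over all genes. The plot of differences with confidence intervals shows the 3 comparisons side by side.

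Grem1 (probe set 10848281) read 6.13, 6.11, 6.28 and 6.55 in the 4 normoxia rats and 7.90, 8.02, 8.09 and 7.90 in the 4 hypoxia rats. It was the dimmest of the genes followed here. Its mean over all arrays was 7.12, at percentile 29.3 of all genes, and Bmp2 was next at percentile 56.7. RMA compresses differences of dim probe sets, and the part of this in the Grem1 differences was not tested. Every hypoxia rat was more than 1 log2 unit above the highest normoxia rat. The difference was 1.71 (SE 0.14, 95% confidence interval 1.41 to 2.01, adjusted p = 5.17e-06 by limma), the 6th smallest p of all genes. Counting normoxia replicate 4 as hypoxia gave 1.52 (adjusted p = 0.0361). Of 8 smooth muscle markers 3 rose in hypoxia, where 3.21% of all genes rose. The mean of the 8 was 0.25 to 0.51 above normoxia in the 4 hypoxia rats. Of 8 fibroblast markers 1 rose, and their mean relative to normoxia ran from -0.02 to 0.23 in hypoxia and from -0.38 to 0.33 within normoxia. The part of cell composition in the Grem1 rise was not tested.

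**Figure D1:**
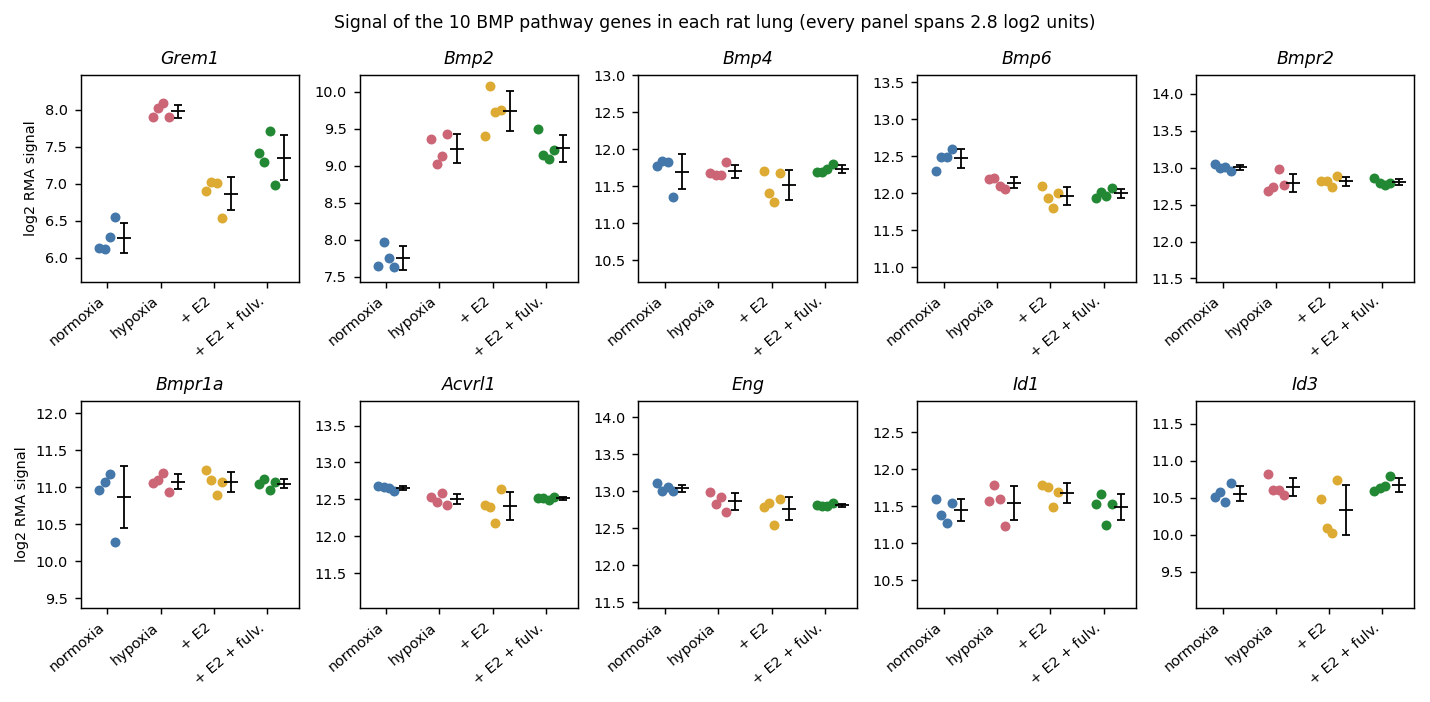
Log2 RMA signal (vertical axis) of each of the 10 genes in the 16 lungs. Points are single rats, and the bar beside them is the group mean ± SD (n = 4). Grem1 sits lowest in normoxia (6.11 to 6.55) and highest in hypoxia (7.90 to 8.09). The E2 rats (6.54 to 7.03) lie between them but for the lowest, which is just under the highest normoxia rat. Bmp2 is above 9 in every hypoxic rat and below 8 in every normoxic rat.

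Bmp2, a ligand known for inducing bone, was measured by probe set 10840138 and read 7.64, 7.97, 7.76 and 7.63 in normoxia and 9.36, 9.02, 9.12 and 9.42 in hypoxia. The groups were separated by about 1 log2 unit, from 7.97 to 9.02. The difference was 1.48 (SE 0.13, 95% confidence interval 1.20 to 1.76, adjusted p = 1.12e-05), the 9th smallest p. Bmp2 in normoxia replicate 4 was the lowest of all 16 rats. With that rat in the hypoxia group the difference was 1.12 and missed the threshold (adjusted p = 0.0987).

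Bmp6, a ligand known for raising hepcidin in the liver, read 12.30, 12.49, 12.49 and 12.60 in normoxia and 12.19, 12.21, 12.10 and 12.06 in hypoxia. The groups did not overlap, but the gap was narrow, from 12.21 to 12.30. The difference was -0.33 (SE 0.07, adjusted p = 0.0141), and -0.19 (adjusted p = 0.387) with normoxia replicate 4 moved to hypoxia. Bmp4, which acts through the same receptors as Bmp2, was 11.70 ± 0.23 in normoxia and 11.70 ± 0.09 in hypoxia (SD, n = 4), a difference of 0.01 (95% confidence interval -0.22 to 0.23). The 3 ligands therefore differed from each other in direction and size.

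The receptors differed by small amounts. Bmpr2, the type II receptor, read 13.05, 12.99, 13.00 and 12.96 in normoxia and 12.68, 12.74, 12.98 and 12.76 in hypoxia. Only hypoxia replicate 3 reached the normoxia range. Its difference of -0.21 (SE 0.06, 95% confidence interval -0.34 to -0.08) did not pass (adjusted p = 0.0562). Leaving out hypoxia replicate 3 made it -0.27 (adjusted p = 0.0072), and it also passed with the dimmest genes left out (adjusted p = 0.0415).

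Acvrl1, the type I receptor of endothelium, read 12.68, 12.67, 12.65 and 12.62 in normoxia and 12.53, 12.47, 12.59 and 12.43 in hypoxia. Eng, the endothelial co-receptor endoglin, read 13.11, 13.00, 13.05 and 13.00 in normoxia and 12.99, 12.83, 12.93 and 12.73 in hypoxia. For both genes every hypoxia rat was below every normoxia rat, yet neither passed: the differences were -0.15 (SE 0.07, adjusted p = 0.265) and -0.17 (SE 0.07, adjusted p = 0.197). With Bmp6, 3 of the 10 genes had hypoxia arrays wholly below normoxia and 2 wholly above. Of all genes 5.33% lay wholly below and 6.74% wholly above, 12.1% together. The mean of 9 endothelial markers differed from the normoxia mean by -0.12 to -0.03 in the 4 hypoxia rats. Past the test 1 of the 9 was lower and 0 higher, where 2.43% of all genes were lower. The part of endothelial cell number in these small differences was not tested.

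Bmpr1a, the type I receptor that most cells use for Bmp2 and Bmp4, read 10.96, 11.07, 11.17 and 10.25 in normoxia, the last being replicate 4. In hypoxia it lay between 10.94 and 11.20. The difference of 0.21 (adjusted p = 0.458) became 0.01 without normoxia replicate 4.

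The targets Id1 and Id3, inhibitors of DNA binding that respond early to BMP receptors, did not pass. Id1 read 11.60, 11.39, 11.28 and 11.55 in normoxia and 11.57, 11.78, 11.60 and 11.23 in hypoxia, so the groups overlapped throughout. The difference was 0.09 (SE 0.12, 95% confidence interval -0.15 to 0.34, adjusted p = 0.704). Id3 was 10.56 ± 0.11 in normoxia and 10.64 ± 0.13 in hypoxia (SD, n = 4), a difference of 0.09 (95% confidence interval -0.18 to 0.35, adjusted p = 0.759).

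**Figure D2:**
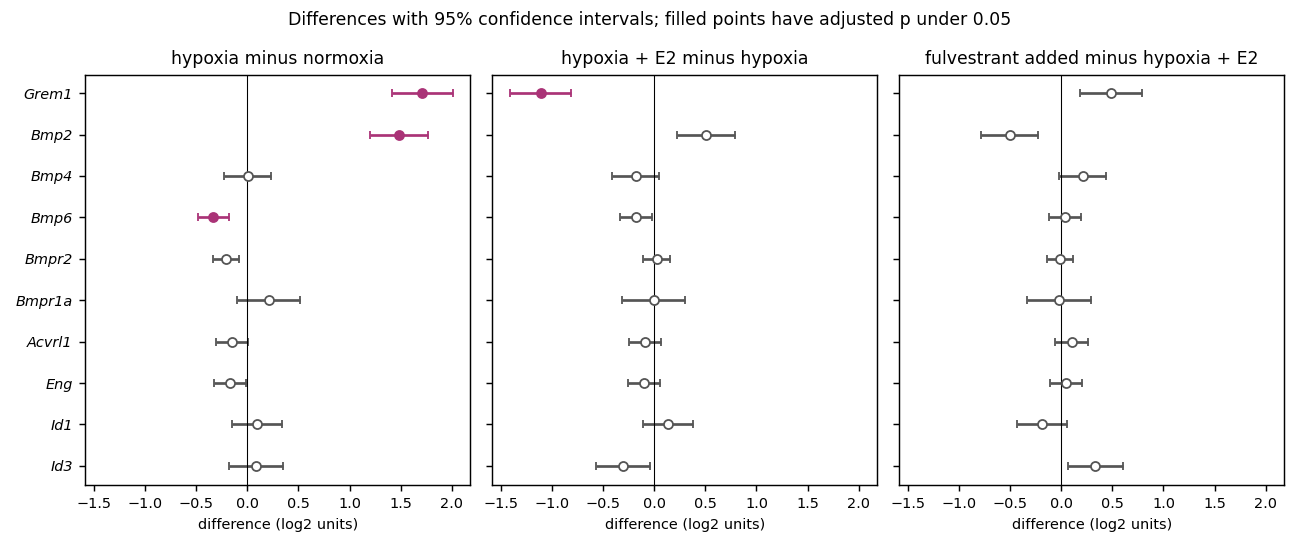
Difference in log2 units (horizontal axis) for each gene in the 3 main comparisons, with 95% confidence intervals from the limma fit; filled points have an adjusted p under 0.05. Grem1 (1.71), Bmp2 (1.48) and Bmp6 (-0.33) are filled for hypoxia minus normoxia, Grem1 (-1.11) is for E2, and no point is for fulvestrant.

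The second comparison, E2 with hypoxia alone, bears on estradiol at low oxygen. Grem1 was 2.16-fold lower and was the only 1 of the 10 genes to pass, where 0.772% of all genes passed and 0.462% passed as lower. It was also the 1 gene of the 10 without overlap, against 6.65% of all genes. It had the smallest p of all 14506 genes in this comparison. Bmp2 lay on the other side, 1.42-fold higher, without passing. The median difference over the 10 genes was -0.10, against -0.02 over all genes.

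Grem1 read 6.90, 7.03, 7.004 and 6.54 in the 4 E2 rats, each below the lowest hypoxia rat at 7.90. The difference was -1.11 (SE 0.14, 95% confidence interval -1.41 to -0.81, adjusted p = 0.00848). Grem1 with E2 was still above normoxia by 0.60 (SE 0.14, adjusted p = 0.0226), although E2 replicate 4 (6.54) lay just under normoxia replicate 4 (6.55). That difference passed in 4 of the 8 fits that left out 1 rat, and was 0.55 without normoxia replicate 1 (adjusted p = 0.075), normoxia replicate 2 (0.0753), E2 replicate 2 (0.0646) or E2 replicate 3 (0.0662). Without E2 replicates 2 and 3 the fall was larger at -1.26, with 2 rats left and an adjusted p of 0.0533. If normoxia replicate 4 is taken as hypoxia it was -0.83 (adjusted p = 0.19), and the excess over normoxia was 0.69 (adjusted p = 0.218). In the same comparison 1 of 8 fibroblast markers was lower and 0 higher, and 0 of 8 smooth muscle markers passed. The mean of the fibroblast markers relative to normoxia ran from -0.24 to -0.01 with E2 and from -0.02 to 0.23 in hypoxia, and all 6 neutrophil markers were higher with E2 than in hypoxia. The part of these cells in the Grem1 difference was not tested.

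Bmp2 read 9.40, 10.07, 9.72 and 9.76 with E2, and 3 of these 4 rats were above the highest hypoxia rat (9.42). The difference was 0.51 (SE 0.13, 95% confidence interval 0.23 to 0.79, adjusted p = 0.0808). It passed without E2 replicate 1 (0.62, adjusted p = 0.032) and was 0.35 (adjusted p = 0.507) without E2 replicates 2 and 3. Against normoxia Bmp2 with E2 was higher by 1.99 (SE 0.13, adjusted p = 3.54e-07), a 3.97-fold difference and the largest of Bmp2 in these data.

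Bmp6 read 12.09, 11.93, 11.81 and 12.01 with E2, a further -0.18 from hypoxia that did not pass (adjusted p = 0.249). Against normoxia it fell by 0.51 (SE 0.07, adjusted p = 0.000756). Id3 read 10.48, 10.09, 10.02 and 10.74 with E2, and the 2 low rats were replicates 2 and 3, those with high immediate early genes. Its difference from hypoxia was -0.31 (SE 0.13, adjusted p = 0.255), and -0.03 without these 2 rats. Without E2 replicate 4, the highest of the group, it was -0.44 and passed (adjusted p = 0.0424). Bmp4 was also lowest in those rats, at 11.41 and 11.29, against 11.70 and 11.68 in replicates 1 and 4. Its difference from hypoxia was -0.18 (adjusted p = 0.43), and -0.01 without them. Hypoxia replicate 2, whose immediate early mean was as high as that of E2 replicate 3, read 10.60 for Id3 and 11.65 for Bmp4. The hypoxia ranges were 10.54 to 10.82 and 11.65 to 11.83. The part of whatever set E2 replicates 2 and 3 apart was not tested.

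Id1 was 11.68 ± 0.13 with E2 (SD, n = 4), 0.14 above hypoxia (95% confidence interval -0.11 to 0.38, adjusted p = 0.603). The receptors moved by -0.10 to 0.02 and none passed, with adjusted p from 0.52 (Eng) to 0.989 (Bmpr1a). Against normoxia Eng with E2 was lower by more than any other receptor at -0.28 (SE 0.07, adjusted p = 0.0409). Of the 8 fits that left out 1 rat it passed in 1, the fit without E2 replicate 4, and the adjusted p rose to as much as 0.118. In E2 replicate 3, which had the lowest Eng (12.54) and Acvrl1 (12.18) of all 16 rats, the difference of the endothelial marker mean from normoxia was -0.35, against -0.15 to -0.06 in the other E2 rats. Of the 9 endothelial markers 4 were lower than normoxia with E2 and 0 higher, where 339 of all 14506 genes were lower. The part of endothelial cells in the Eng difference was not tested. In all, 4 of 10 genes passed against normoxia, Grem1 and Bmp2 higher and Bmp6 and Eng lower, where 5.21% of all genes passed.

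The third comparison, fulvestrant added to E2, bears on estrogen receptor blockade. None of the 10 genes passed by limma, where 0.0483% of all genes passed. At an unadjusted p under 0.05 there were 3 of the 10 genes, Grem1, Bmp2 and Id3, and 14.8% of all genes. The median difference over the 10 genes was 0.04, against 0.00 over all genes to 2 decimals.

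Grem1 read 7.42, 7.30, 7.71 and 6.98 with fulvestrant, against 6.54 to 7.03 with E2 alone, and only replicate 4 lay inside the E2 range. The difference was 0.49 (SE 0.14, 95% confidence interval 0.19 to 0.79, adjusted p = 0.121). With fulvestrant Grem1 differed from hypoxia by -0.63 (SE 0.14, 95% confidence interval -0.93 to -0.33, adjusted p = 0.449), which did not pass. Every fulvestrant rat was nonetheless below the lowest hypoxia rat (7.90). In that comparison 0 of 14506 genes (0%) passed by limma, and 1009 (6.96%) had an unadjusted p under 0.05. Grem1 was among the latter (unadjusted p = 0.00043 by limma). With fulvestrant Grem1 was 1.09 above normoxia (SE 0.14, adjusted p = 0.000368), or 1.18 (adjusted p = 0.0751) with normoxia replicate 4 taken as hypoxia. Smooth muscle markers were higher than normoxia in 6 of 8 genes with fulvestrant, where 2.96% of all genes passed in either direction. Their mean was 0.48 to 0.89 above normoxia in the 4 rats, and the part of smooth muscle in the Grem1 difference was not tested. The order of Grem1 means was thus normoxia (6.27), E2 (6.87), fulvestrant (7.35) and hypoxia (7.98). Of the neighbours, normoxia and E2 passed, E2 and fulvestrant did not, and fulvestrant and hypoxia did not.

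Bmp2 read 9.49, 9.14, 9.08 and 9.22 with fulvestrant, a difference from E2 of -0.51 (95% confidence interval -0.79 to -0.22, adjusted p = 0.097). Its mean of 9.23 equalled that of hypoxia to 2 decimals, with a difference of 0.00 (95% confidence interval -0.28 to 0.29). The order of Bmp2 means was normoxia (7.75), hypoxia and fulvestrant (both 9.23) and E2 (9.74), in which only normoxia was set apart from its neighbours past the test. Bmp2 and Bmp6 still differed from normoxia with fulvestrant, by 1.48 (SE 0.13, adjusted p = 9.77e-06) and -0.47 (SE 0.07, adjusted p = 0.00145). With Grem1 these made 3 of 10 genes, where 2.96% of all genes passed. With normoxia replicate 4 taken as hypoxia, Bmp6 missed the threshold here too (adjusted p = 0.0865). Including these 3, the arrays of 6 of the 10 genes did not overlap with normoxia, against 12.3% of all genes.

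**Figure D3:**
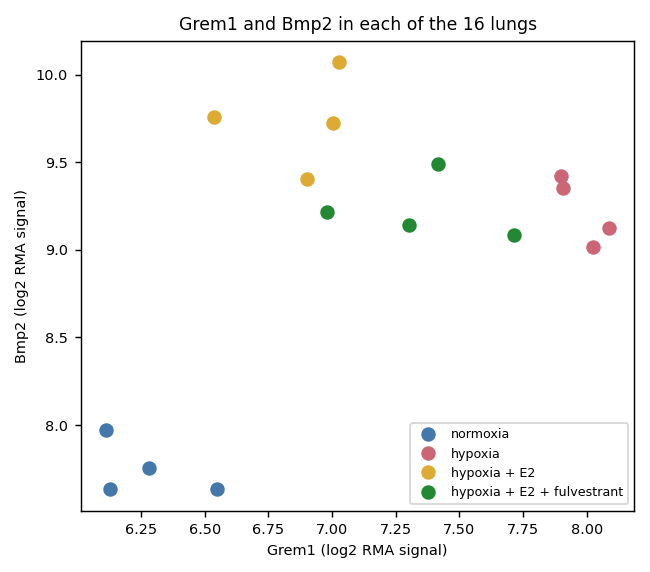
Bmp2 signal (vertical axis) against Grem1 signal (horizontal axis), both in log2 RMA units, with 1 point per lung. The normoxia lungs lie at the lower left, and the hypoxia lungs at the right with Grem1 of 7.90 to 8.09. The E2 lungs have Bmp2 of 9.40 to 10.07 and Grem1 of at most 7.03. They lie at the top but for replicate 1 (Bmp2 of 9.40), which is below the highest hypoxia (9.42) and fulvestrant (9.49) lungs. The fulvestrant lungs have Grem1 of 6.98 to 7.71, between the hypoxia and E2 lungs but for the lowest of them.

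Id3 with fulvestrant read 10.59, 10.63, 10.66 and 10.80, which is 0.34 above E2 (SE 0.13, adjusted p = 0.223), and 0.06 above it without E2 replicates 2 and 3. Without E2 replicate 4 it was 0.47 above and passed (adjusted p = 0.0335). Id1 was 11.49 ± 0.18 (SD, n = 4), a difference from E2 of -0.19 (adjusted p = 0.483). Bmpr2 lay between 12.77 and 12.86, below every normoxia rat, and differed from normoxia by -0.20 (SE 0.06, adjusted p = 0.105). Bmpr2 was thus between 12.79 and 12.81 on average in all 3 hypoxic groups, and the differences between these groups were at most 0.02 in size.

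Other genes of the pathway were read from 5 lists. Of 11 other secreted BMP antagonists 3 rose in hypoxia and 0 fell, where 3.21% of all genes rose, and the list's median was 0.22. The risers were Fst, which codes for follistatin and binds activins as well as BMPs, Fstl3, a relative that binds activins, and Nbl1, of the same family as Grem1. Fst went from 8.68 ± 0.25 to 9.80 ± 0.36 (SD, n = 4), a rise of 1.12 (SE 0.22, adjusted p = 0.00565). Fstl3 rose by 0.39 (adjusted p = 0.00518) and Nbl1 by 0.35 (adjusted p = 0.0199). Fst and Fstl3 passed in all 8 fits that left out 1 rat, and Nbl1 in 4 of the 8, missing without replicate 1 or 2 of either group. With E2 none of the 11 passed against hypoxia: Fst differed by -0.49 (adjusted p = 0.285), Nbl1 by -0.16 and Fstl3 by -0.02. With fulvestrant all 3 were above normoxia past the test, by 0.87, 0.45 and 0.40 for Fst, Nbl1 and Fstl3, but Fst passed in 0 of the 8 fits that left out 1 rat.

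Of 10 SMADs and their regulators 2 fell in hypoxia and 0 rose, where 2.43% of all genes fell. They were Smad6, an inhibitory SMAD that is itself a BMP target, and Smurf2, a ubiquitin ligase that acts on SMADs and receptors. Smad6 went from 11.98 ± 0.14 to 11.36 ± 0.25 (SD, n = 4; difference -0.61, SE 0.14, adjusted p = 0.0174). Its difference from normoxia was -0.55 with E2 (adjusted p = 0.0356) and -0.65 with fulvestrant (adjusted p = 0.0176). In fits that left out 1 rat it passed in 5 of 8 for hypoxia, missing without normoxia replicate 1 or hypoxia replicate 2 or 4, in 3 of 8 with E2 and in 5 of 8 with fulvestrant. The differences of Smurf2 from normoxia were -0.33, -0.26 and -0.28 in the 3 hypoxic groups, all past the test, and it passed in 8, 4 and 3 of the 8 fits that left out 1 rat.

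The normoxia means of 10 other BMP target genes ran from 5.61 (Msx2) to 12.27 (Tmem100). In hypoxia 1 of the 10 fell and 0 rose, where 2.43% of all genes fell. The 1 was Tmem100, an endothelial gene downstream of Acvrl1 in mice. It went from 12.27 ± 0.12 to 11.69 ± 0.16 (SD, n = 4), a difference of -0.58 (SE 0.09, adjusted p = 0.00151), and passed in all 8 fits that left out 1 rat. It differed from normoxia by -0.66 with E2 (adjusted p = 0.000685) and -0.61 with fulvestrant (adjusted p = 0.00136), and no rat of the 3 hypoxic groups reached the normoxia range of 12.11 to 12.37. The endothelial marker mean differed from normoxia by -0.12 to -0.03 in hypoxia, -0.35 to -0.06 with E2 and -0.11 to -0.03 with fulvestrant. In these groups 1, 4 and 1 of the 9 markers were lower and 0 higher, where 352, 339 and 144 of all 14506 genes were lower. The part of endothelial cells in the Tmem100 difference was not tested.

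Of 7 other receptors and co-receptors 1 rose in hypoxia, the type I receptor Acvr1 (0.27, adjusted p = 0.0479), and 1 fell, Tgfbr3, a co-receptor called betaglycan (-0.48, adjusted p = 0.0308). Among all genes 3.21% rose and 2.43% fell. Acvr1 passed in 1 of the 8 fits that left out 1 rat, that without normoxia replicate 3. Tgfbr3 passed in 4 of the 8, missing without replicate 1 or 4 of either group. With fulvestrant Tgfbr3 differed from normoxia by -0.49 (adjusted p = 0.0409), which passed in 1 of the 8 fits that left out 1 rat (adjusted p up to 0.141) and missed with all probe sets tested (adjusted p = 0.0689). Of 8 other BMP ligands 0 passed by limma in any of the 3 main comparisons, and the smallest p was that of Bmp15, a ligand of the ovary, with E2 against hypoxia (-0.41, adjusted p = 0.187). Only Bmp3 of these ligands had group means above the median of all genes (8.62). Not passing says little about dim ligands such as Bmp10, with group means of 5.41 to 5.53. In all 5 lists 0 genes passed for E2 against hypoxia and 0 for fulvestrant against E2. With normoxia replicate 4 taken as hypoxia, none of the 8 genes that passed in hypoxia did so, with adjusted p from 0.0506 (Tmem100) to 0.301 (Tgfbr3).

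**Figure D4:**
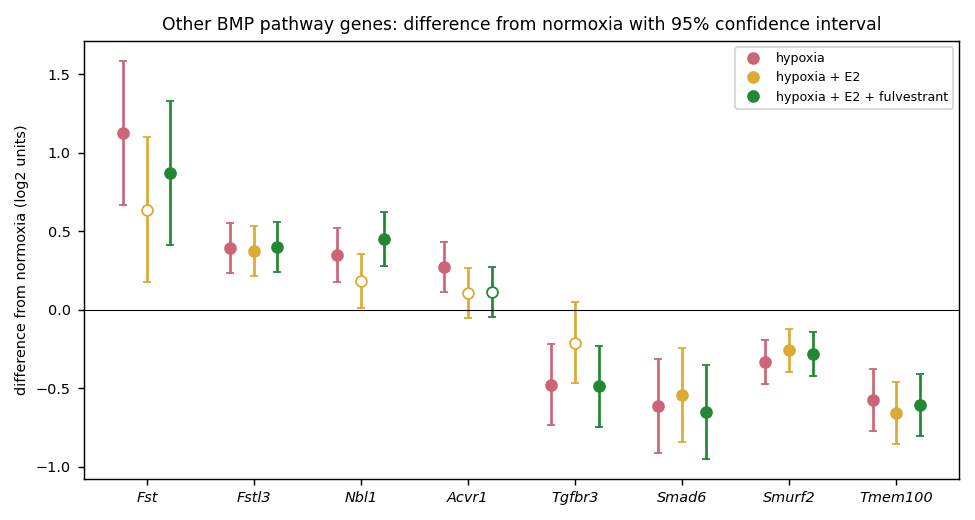
Difference from normoxia in log2 units (vertical axis) of 8 other BMP pathway genes that passed in hypoxia, for the 3 hypoxic groups, with 95% confidence intervals; filled points have an adjusted p under 0.05. Fst, Fstl3 and Nbl1 lie above 0 and Smad6, Smurf2 and Tmem100 below 0 in all 3 groups.

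The genes whose signal followed that of Grem1 most closely were sought by Pearson's r across the 16 arrays, as a description, since the arrays fall into 4 groups. The highest were the activin subunit Inhba (r = 0.93), the mesenchymal transcription factor Prrx1 (0.92), the olfactory receptor Or51e1 (0.92), Prr16 (0.90) and the orphan receptor Gpr176 (0.90). Each was highest in hypoxia and lowest in normoxia, with E2 and fulvestrant between, in that order from low to high. Inhba went from 7.06 in normoxia to 8.06 in hypoxia, 7.53 with E2 and 7.88 with fulvestrant. The lowest were the cytochrome P450 gene Cyp1a1 (r = -0.86), the kinase Stk4 (-0.85) and Ago4, of the microRNA machinery (-0.84). For Bmp2 the closest were the protease Adamts1 (r = 0.96), the nucleotide receptor P2ry2 (0.95) and the kinase Sgk1 (0.94). Adamts1 was 11.40 in hypoxia and 11.91 with E2, a difference of the size of that of Bmp2 which also did not pass (adjusted p = 0.136). P2ry2 and Sgk1 differed less between E2 and hypoxia, by 0.07 (adjusted p = 0.7) and 0.22 (adjusted p = 0.214). For Id1 they were the olfactory receptor Or4k35 (r = 0.86), Kl, the gene of klotho (0.86), and Itpr3, a calcium channel of the endoplasmic reticulum (0.83), none of which passed in any of the 3 main comparisons. Or4k35 was dim, with group means of 4.72 to 4.86 against a median of 8.62 over all genes.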

How the data were processed

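Lung RNA of 16 rats was hybridised as biotin-labelled target, 1 array per rat, and every RNA integrity number was at least 9 per the labels. The deposited values are log2 signals that the authors made with RMA and Partek, per the submitters' processing notes, which give no versions or settings; RMA makes the arrays' distributions alike, which hides any change common to most genes, and compresses differences of dim probe sets. The number of arrays limits the precision. Of the probe sets 15310 had 1 gene symbol, 323 several and 13581 none; the brightest per gene gave 14506 genes, of which 14480 had an ID in RefSeq's GRCr8 table. Differences were tested with limma 3.58.1 in R 4.3.3, in 1 fit of 4 group means over 16 arrays across all genes, with Benjamini-Hochberg adjustment over all genes and a threshold of 0.05. The script was tested on simulated data.

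Groups came from sample titles. Replicate numbers follow accession order and pair nothing, and no batch is given, so batch and group cannot be told apart. There were 3 main and 3 secondary comparisons. The members, gene lists, marker lists and tests were chosen with earlier results of these data known. Named genes were all members, every gene of the 5 pathway lists passing in a main comparison (or the smallest p where none did), and the genes most correlated with Grem1, Bmp2 and Id1, without placeholder symbols. Promoter windows and motifs were read from RefSeq's table. Alternatives were other scaling, filters, probe set rules, moderation, samples in the fit, the label of normoxia replicate 4, and leaving out arrays; their use on the pathway-list genes was chosen after seeing the data.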

Additional observations from a re-analysis of the deposited data

Results flagged for a closer look

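Of 40 sets of 4 arrays (10 genes in 4 groups) 1 held an array set far apart from the other 3. Bmp4 in normoxia replicate 4 was 11.35, against 11.77 for the nearest of the other normoxia rats, a gap of 0.869 of the group's whole range, above Dixon's critical value for 4 values. Chance alone gives such a gap in about 5% of sets, so 1 in 40 is no excess. The same array had the lowest Bmpr1a of all 16 rats (10.25), its cardiac marker mean was the highest of all 16 rats (1.82 above the normoxia mean), and its treatment field disagrees with its title.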

How the results depend on the processing

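No paired analysis was possible because the labels give no replicate numbers shared between groups. None of the members' 980 repeated differences was reversed while called; 25 lost and 9 gained a call, and 48 that were never called changed sign. Of 882 repeats for the pathway-list genes 81 lost and 6 gained a call, and 0 reversed. The cause of these moves was not tested.

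With normoxia replicate 4 counted as hypoxia, the members passing went from 3 to 1 in hypoxia against normoxia, from 1 to 0 in E2 against hypoxia, from 4 to 2 in E2 against normoxia and from 3 to 1 in fulvestrant against normoxia; all genes passing went from 817 to 40, 112 to 0, 756 to 351 and 430 to 100. Without E2 replicates 2 and 3, a smaller group, the members passing were 0 in E2 against hypoxia and 2 in E2 against normoxia, and all genes were 0 and 325, and 0 in fulvestrant against E2 (7 before). With only the groups compared in the fit, all genes were 5 in E2 against hypoxia, 0 in fulvestrant against E2, 216 (2 members) in E2 against normoxia and 2 in fulvestrant against hypoxia (0 before, where limma gave 1009 at an unadjusted p under 0.05). Testing all probe sets gave 4 in E2 against hypoxia and 1 in fulvestrant against E2. The latter gave 21 with median centring, 33 with quantile normalization again, 28 with the dimmest genes left out and 44 with trend and robust moderation.

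Leaving out 1 rat at a time, the members passing ranged from 3 to 4 in hypoxia against normoxia, 1 to 2 in E2 against hypoxia, 0 to 1 in fulvestrant against E2, 2 to 5 in E2 against normoxia and 3 to 3 in fulvestrant against normoxia, with 0 to 0 in fulvestrant against hypoxia. All genes ranged from 428 to 986, 3 to 355, 0 to 331, 384 to 887, 238 to 374 and 0 to 0. Grem1 passed in all 8 such fits for hypoxia against normoxia (1.66 to 1.81, with Bmp2 1.42 to 1.55) and for E2 against hypoxia (adjusted p up to 0.0439), and Bmp6 in all 8 for hypoxia (adjusted p up to 0.044). Grem1 with E2 against normoxia passed in 4 of 8. Scaling moved the median of all genes by under 0.1 log2 units.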

Other observations

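Neutrophil markers were higher with E2 than in hypoxia in 6 of 6 genes past the test, where 0.772% of all genes passed. Their median difference was 1.67. The neutrophil mean above normoxia was largest in E2 replicates 2 and 3 (1.35 and 1.34). Those arrays had the lowest Id3 and Bmp4 of that group. Erythroid markers were higher than normoxia in 1 of 5 genes in hypoxia past the test, where 3.21% of all genes were higher. All 5 differences were positive, with a median of 1.46. Their mean above normoxia was 2.093, 1.645 and 1.844 in hypoxia replicates 1, 2 and 4, and -0.06 in replicate 3. Hypoxia replicate 3 also had the highest Bmpr2 of its group (12.98). Of 5 cardiac markers, which mark muscle around the large lung veins in rodents, 0 passed by limma in any of the 6 comparisons. Their mean ran from 7.56 to 10.67 within normoxia. Their median differences from normoxia were -0.96 in hypoxia, -0.83 with E2 and -1.08 with fulvestrant. With this spread the test cannot show that the groups were alike in cardiac muscle. Of the 10 alveolar epithelial markers 1 was lower in hypoxia, where 2.43% of all genes were lower. Of the 10 immediate early genes 0 passed in the 3 main comparisons and 3 were higher with E2 than in normoxia, where 5.21% of all genes passed.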
